A study of Mus musculus with 6 samples.

Results

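The contractile genes of smooth muscle were followed in the hearts of mice carrying the Txnip C247S mutation. The set holds 10 named genes, Acta2, Myh11, Tagln, Cnn1, Myl9, Smtn, Mylk, Actg2, Lmod1 and Myocd, out of the 49315 genes in the deposited count table. Each was found by its Ensembl identifier and GENCODE symbol. The set was drawn up with the comparison of the genotypes already known, in which Acta2 was the smooth muscle gene that stood out. The differences of its members between genotypes are therefore given as a description, and nothing is supported by them. The question was whether Acta2 moved together with the other members.

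Hearts of C57BL/6 mice were studied by bulk RNA sequencing, 3 from conditional knock-in mice labelled Txnip C247S mutant and 3 from wild-type mice labelled Txnip WT. The MerCreMer recombinase, a Cre that acts once tamoxifen or its metabolite binds it, and 4-hydroxytamoxifen are named for all 6 hearts. The labels do not say whether the wild-type mice carried the recombinase, and they give no promoter for it, nor age, sex or litter. Txnip encodes a thioredoxin-interacting protein, and the mutation exchanges a cysteine for a serine.

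Smooth muscle contracts when calcium and calmodulin activate myosin light chain kinase, which phosphorylates the regulatory light chain and lets smooth muscle myosin pull on actin filaments. Most genes of this apparatus are controlled by serum response factor, SRF, which binds a short DNA element called the CArG box, together with its coactivator myocardin. In the heart these genes are used as markers of the muscle layer of coronary vessels. Smtn and Myocd are also expressed in other muscle. Acta2 is also expressed in the embryonic heart muscle and in myofibroblasts.

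Library totals were 14737704 to 15620476 counts in knock-in and 14146048 to 14560325 counts in wild-type hearts. Txnip had 438, 391 and 429 CPM (read counts scaled to library size and normalised by TMM) in the knock-in hearts, against 723, 791 and 740 CPM in the wild-type hearts. Knock-in replicate 2 and wild-type replicate 3 stood apart from the others of their genotype. The chi-square per degree of freedom between counts of 2 hearts was 7.0 for knock-in replicates 1 and 3 and 6.70 for wild-type replicates 1 and 2, but 14.0 to 25.1 for pairs that held either of those 2 hearts. The tissue carried markers of heart muscle cells. The summed level of 11 cardiomyocyte markers was 79795 to 85350 CPM in knock-in and 73081 to 75753 CPM in wild-type hearts. The atrial light chain gene Myl7 was at 0 to 0.340 CPM in knock-in and 0 to 0.346 CPM in wild-type hearts. The summed level of 7 atrial markers was 175 to 595 CPM in knock-in and 125 to 275 CPM in wild-type hearts. Most of that sum was Nppa, at 572, 151 and 286 CPM in knock-in hearts, against 207, 252 and 103 CPM in wild-type hearts.

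SRF sites are shown first, because they are the sequence that this gene programme is known to share. RefSeq promoter windows (GRCm38.p6, 250 bases before to 50 after an annotated start) were matched for 6 of the 10 members, Acta2, Cnn1, Myl9, Smtn, Mylk and Lmod1, and for the actin genes Acta1, Actc1 and Actg1. A CArG box was taken as CC, 6 bases of which at most 1 is G or C, and GG, a pattern that reads the same on both strands. By this definition 9.98% of 32851 windows hold at least 1 box and 0.822% hold at least 2. Acta2 and Myl9 hold 2 each, and the windows of the other 4 matched members hold 0. Actc1 holds 4 boxes, Acta1 3 and Actg1 1. Printed from 5′ to 3′ with the box in capitals are all boxes of the members, the Actc1 box that matches one of Acta2, the Actc1 box with only A and T inside, and the Actg1 box.
Acta2, chr19:34255438-34255467, minus strand: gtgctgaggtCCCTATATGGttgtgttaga
Acta2, chr19:34255388-34255417, minus strand: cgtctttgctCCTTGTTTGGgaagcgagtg
Myl9, chr2:156775293-156775322, plus strand: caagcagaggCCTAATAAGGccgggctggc
Myl9, chr2:156775355-156775384, plus strand: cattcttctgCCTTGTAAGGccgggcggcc
Actc1, chr2:114053031-114053060, minus strand: ctccctagctCCCTATATGGccattgctct
Actc1, chr2:114052903-114052932, minus strand: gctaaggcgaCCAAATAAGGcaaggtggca
Actg1, chr11:120348566-120348595, minus strand: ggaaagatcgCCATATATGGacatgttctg
The first box of Acta2 starts 84 bases before the RefSeq start and the second 34 bases before it. Both lie inside the first exon of a GENCODE transcript that starts farther upstream. Neither Acta2 box has only A and T between CC and GG, whereas 1 of the 2 Myl9 boxes does. The first Acta2 box is letter for letter the same as a box of Actc1, the cardiac actin gene. A match describes the letters in the window and not a bound site. Sequence outside these windows, such as other starts of the same gene, introns or regions farther upstream, was not scanned. A window with 0 boxes therefore does not mean a gene without SRF sites.

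Acta2, which encodes the alpha-actin of vascular smooth muscle, was the member whose level differed most between the genotypes. Its gene lies on the minus strand of chromosome 19 from 34241090 to 34255590 (GRCm38), and no exon of another annotated gene overlaps its exons. It had 74.2, 93.7 and 72.4 CPM in the knock-in hearts, against 177, 208 and 182 CPM in the wild-type hearts. All 3 knock-in values lay below all 3 wild-type values, and knock-in replicate 2 was the highest of its genotype. The raw counts behind these values were 1141, 1423 and 1063 in knock-in and 2595, 3013 and 2627 in wild-type hearts. In the edgeR fit over all 12777 tested genes the log2 fold change, knock-in over wild-type, was −1.24 ± 0.12 (SE), a level 2.36 times higher in wild-type. Without the 2 hearts that stood apart it was −1.39. In bulk tissue, fewer cells of a type and less RNA per cell cannot be told apart.

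**Figure D1:**
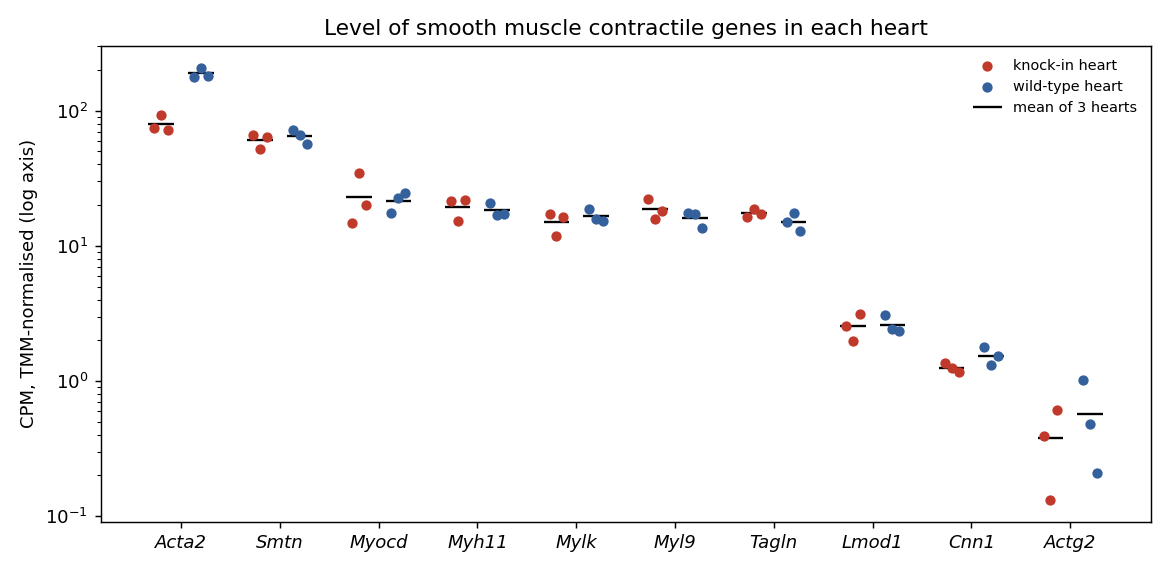
TMM-normalised CPM on a log axis for each of the 10 genes, with each point 1 heart, knock-in hearts to the left of wild-type hearts, and short lines marking the mean of 3 hearts. Acta2 is the gene whose points separate by genotype, with 72.4 to 93.7 CPM in knock-in and 177 to 208 CPM in wild-type hearts.

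The CPM of the genotypes overlapped for the myosin motor of smooth muscle and its regulators. Myh11, the smooth muscle myosin heavy chain and the most specific marker of the mature cell, had 21.5, 15.2 and 21.8 CPM in knock-in hearts, against 20.8, 17.0 and 17.1 CPM in wild-type hearts. The ranges overlapped, with knock-in replicate 2 lowest of all 6 hearts, and the log2 fold change was 0.09 ± 0.16 (SE). Myl9, the regulatory light chain that is phosphorylated at the onset of contraction, had 22.4, 15.8 and 18.1 CPM in knock-in hearts, against 17.4, 17.1 and 13.6 CPM in wild-type hearts. Its log2 fold change was 0.23 ± 0.16 (SE), and again the ranges overlapped. Mylk, the kinase that phosphorylates that light chain, had 17.3, 11.8 and 16.3 CPM in knock-in hearts, against 18.7, 15.7 and 15.3 CPM in wild-type hearts (log2 fold change −0.13 ± 0.16 SE). Knock-in replicate 2 was the lowest of the 6 hearts for Mylk as it was for Myh11.

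The genotypes overlapped for the actin-binding members as well. Smtn encodes smoothelin, an actin-binding protein of contractile smooth muscle that is also found in other muscle. It had 66.1, 51.9 and 64.3 CPM in knock-in hearts, against 72.2, 66.2 and 56.7 CPM in wild-type hearts, with overlapping ranges and a log2 fold change of −0.10 ± 0.13 (SE). Predicted genes on the opposite strand overlap exons of Smtn and of Mylk. Tagln encodes transgelin, also called SM22-alpha, an early marker of the lineage. It had 16.4, 18.6 and 17.3 CPM in knock-in hearts, against 15.0, 17.4 and 12.9 CPM in wild-type hearts (log2 fold change 0.21 ± 0.14 SE). Here knock-in replicate 2 was the highest of the 6 hearts and wild-type replicate 3 the lowest. The Tagln value is uncertain, because 53.8% of the 31-base words of its longest transcript also occur in transcripts of other genes, namely Gm48529 and Pcsk7 on the opposite strand, and the strand setting of the counting is not given. Pcsk7 itself had 15.1, 16.1 and 16.3 CPM in knock-in hearts, against 14.8, 13.4 and 12.8 CPM in wild-type hearts.

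The less abundant thin-filament proteins were measured on few reads. Cnn1, calponin, which inhibits the myosin ATPase, was counted 21, 19 and 17 times in knock-in hearts, against 26, 19 and 22 times in wild-type hearts. Its log2 fold change was −0.29 ± 0.28 (SE) and the CPM of the genotypes overlapped. Lmod1, leiomodin, which nucleates actin filaments, was counted 39, 30 and 46 times in knock-in and 45, 35 and 34 times in wild-type hearts (log2 fold change −0.04 ± 0.25 SE). The ranges of Lmod1 overlapped too, and the low counts leave both estimates wide. Actg2, the gamma-actin of enteric and visceral smooth muscle, did not pass the filter on low counts and was not tested. It was counted 6, 2 and 9 times in knock-in hearts, against 15, 7 and 3 times in wild-type hearts. These values overlapped, and some lay at or under the floor of 3 counts per library.

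Myocd, which encodes the coactivator myocardin and is expressed in heart muscle cells as well as smooth muscle, varied most within a genotype among the tested members. It had 14.7, 34.4 and 20.2 CPM in knock-in hearts, against 17.4, 22.4 and 24.4 CPM in wild-type hearts. Both the lowest and the highest value came from knock-in hearts, replicate 1 and replicate 2. The coefficient of variation was 44.0% in knock-in and 17.0% in wild-type hearts, compared with 14.8% in knock-in and 9.05% in wild-type hearts for Acta2. The log2 fold change of Myocd was 0.11 ± 0.29 (SE), and it became −0.29 without knock-in replicate 2, or −0.022 when wild-type replicate 1 was left out.

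In that fit 1 of the 9 tested members, Acta2, had an adjusted p under 0.05 (edgeR quasi-likelihood test, Benjamini-Hochberg over all genes), lower in knock-in hearts. Of all tested genes 0.297% passed in either direction and 0.188% passed as lower. The adjusted p of the 8 other tested members lay between 0.700 and 0.987. A p that misses the threshold does not show that their levels were alike. Of the 9, 4 had a positive and 5 a negative log2 fold change, with a median of −0.04, and the median over all tested genes was −0.0068. The CPM of the genotypes did not overlap for 1 of the 9, Acta2, and for 16.1% of all tested genes. Because Acta2 was picked from this comparison, no more than these counts is read from it.

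**Figure D2:**
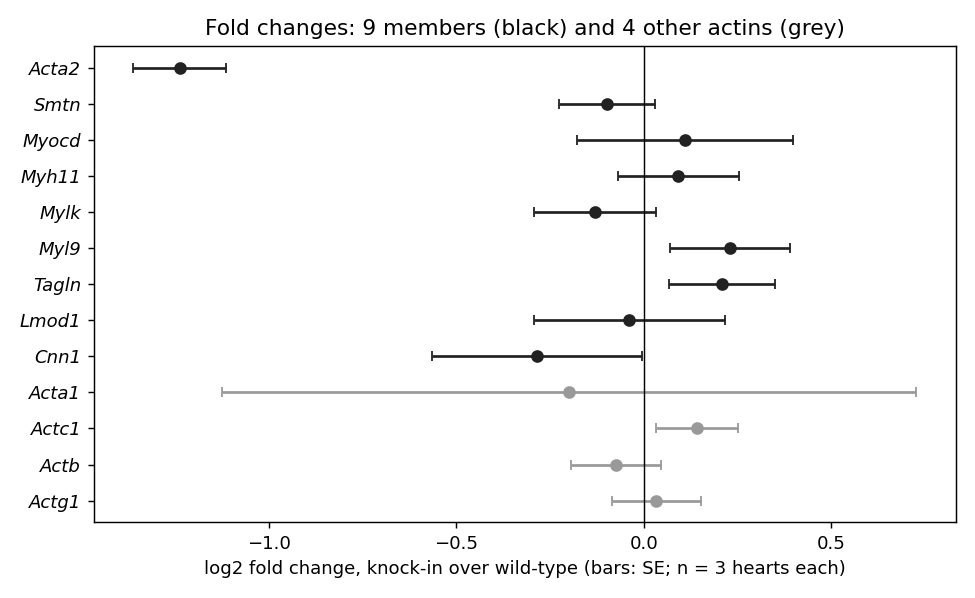
Log2 fold change, knock-in over wild-type, with SE bars (3 hearts per genotype), for the 9 tested contractile genes in black and the 4 other actin isoforms in grey. Acta2 sits at −1.24, and the other 8 contractile genes lie between −0.29 and 0.23.

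Acta2 was next set against the other members heart by heart. The log2 ratio of Acta2 to the median of the 8 other tested members was 2.13, 2.59 and 2.03 in the knock-in hearts, against 3.34, 3.61 and 3.65 in the wild-type hearts. The highest knock-in ratio lay below the lowest wild-type ratio. The mean ratio was 2.25 ± 0.30 in knock-in and 3.54 ± 0.17 in wild-type hearts on the log2 scale (SD, n = 3 each), a difference of −1.28, knock-in minus wild-type, and of −1.40 without the 2 hearts that stood apart. Such a ratio does not depend on how libraries are scaled. Taken gene by gene, the ratio of Acta2 to each of the 8 members was lower in every knock-in heart than in any wild-type heart. The same was true of the ratio of Acta2 to 92.1% of the other tested genes.

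**Figure D3:**
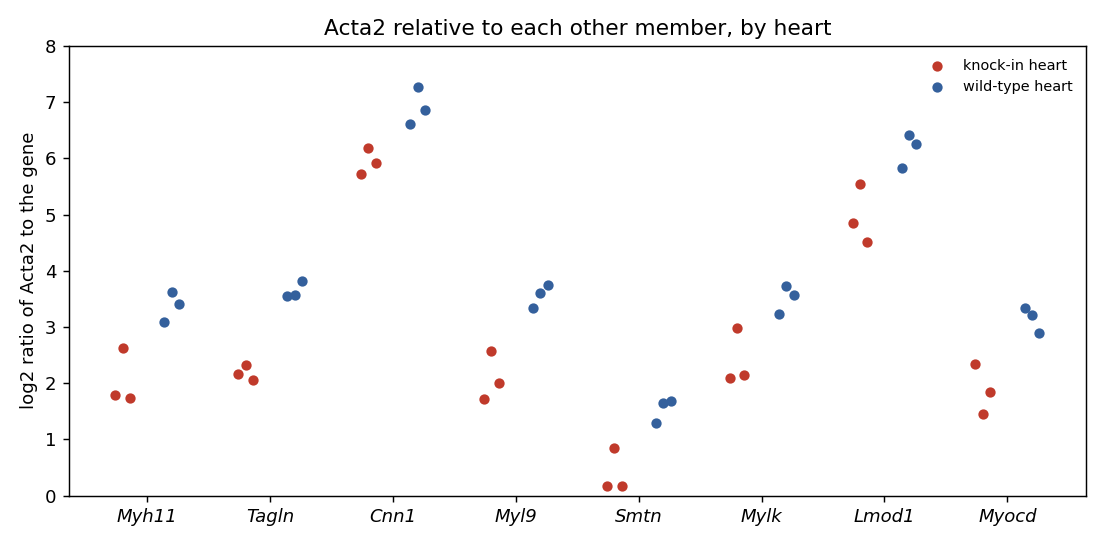
Log2 ratio of Acta2 to each of the 8 other tested contractile genes, 1 point per heart, knock-in hearts to the left of wild-type hearts. For Smtn, the most abundant of the 8 by CPM, the mean log2 ratio is 0.40 in knock-in and 1.54 in wild-type hearts.

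The joint level of the remaining members overlapped between the genotypes. The summed CPM of the 9 members without Acta2 was 163, 151 and 163 in knock-in hearts, against 167, 160 and 144 in wild-type hearts. The means were 159 ± 6.71 CPM in knock-in and 157 ± 11.9 CPM in wild-type hearts (SD, n = 3 each). Smtn was the largest part of this sum, at 51.9 to 66.1 CPM in knock-in and 56.7 to 72.2 CPM in wild-type hearts. In knock-in replicate 2, where Smtn was lowest, Myocd was highest, at 34.4 CPM. Both genes are also expressed in other muscle, as given above, so the sum does not describe smooth muscle alone. Acta2 took 31.3%, 38.3% and 30.8% of the counts of all 10 members in the knock-in hearts, against 51.4%, 56.6% and 55.8% in the wild-type hearts.

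Per kilobase of annotated exon, Acta2 stood well above the rest in both genotypes, at 36.5 ± 5.38 CPM per kilobase in knock-in and 86.0 ± 7.78 CPM per kilobase in wild-type hearts (SD, n = 3 each). Next by this measure came Myl9 and Smtn. Myl9 was at 16.1 ± 2.86 CPM per kilobase in knock-in and 13.8 ± 1.83 in wild-type hearts. Smtn was at 13.9 ± 1.76 CPM per kilobase in knock-in and 14.8 ± 1.78 in wild-type hearts, and the means ± SD of this pair overlapped in both genotypes. Tagln followed at 8.78 ± 0.554 CPM per kilobase in knock-in and 7.60 ± 1.15 in wild-type hearts. Below it, in this order in both genotypes, came Myocd, Myh11, Mylk, Lmod1, Cnn1 and Actg2. In wild-type hearts these ran from 3.33 ± 0.565 CPM per kilobase for Myocd to 0.367 ± 0.266 for Actg2. Among them the neighbours Lmod1 and Cnn1, and Cnn1 and Actg2, had overlapping means ± SD in wild-type hearts. In knock-in hearts Myocd, at 3.59 ± 1.58 CPM per kilobase, overlapped in the same way with Myh11, at 2.57 ± 0.490, so their order is not resolved there. Exon lengths were taken over all annotated transcripts, so a gene with many isoforms, such as Mylk with 8, is understated.

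The pattern over single hearts differed among the members. Of the 8 tested members besides Acta2, 4 were lowest in knock-in replicate 2 (Myh11, Smtn, Mylk and Lmod1), while Tagln and Myocd were highest in that heart. Acta2 was higher in knock-in replicate 2 than in the other knock-in hearts. Wild-type replicate 1 was the highest heart for 3 of the 8, Smtn, Mylk and Cnn1. The mean of the 8, each centred on its own mean over the 6 hearts, ran from −0.089 to 0.055 on the log2 scale in knock-in and from −0.096 to 0.10 in wild-type hearts. For Acta2 the centred values were −0.72, −0.39 and −0.76 in knock-in, against 0.53, 0.77 and 0.57 in wild-type hearts.

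Among 9106 genes with a mean of at least 5 CPM, likeness to Acta2 was measured as the root-mean-square distance between centred log2 CPM values over the 6 hearts. The nearest were Gnb3 (distance 0.20), a G-protein beta subunit gene, Lrtm1 (0.21), Abat (0.21), the enzyme that breaks down GABA, Armc2 (0.22) and Scgb1c1 (0.22). This describes 6 libraries and ranks genes that differ between the genotypes by about as much as Acta2 does. Gnb3 had 8.84, 9.08 and 6.47 CPM in knock-in hearts, against 20.5, 19.4 and 14.9 CPM in wild-type hearts. The contractile genes were set against this ranking whatever their level. The closest was Cnn1 (distance 0.54), which lies below 5 CPM itself and would rank 852 among the compared genes, and the farthest was Myl9 (0.78). The mean profile of the 8 other members was nearly flat, and the 3 genes nearest to it, Tbce (0.021), Nop53 (0.027) and Spg7 (0.029), were likewise level over the hearts. That mean averages members that differ. In knock-in replicate 2 the centred value was 0.68 for Myocd and −0.41 for Mylk.

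**Figure D4:**
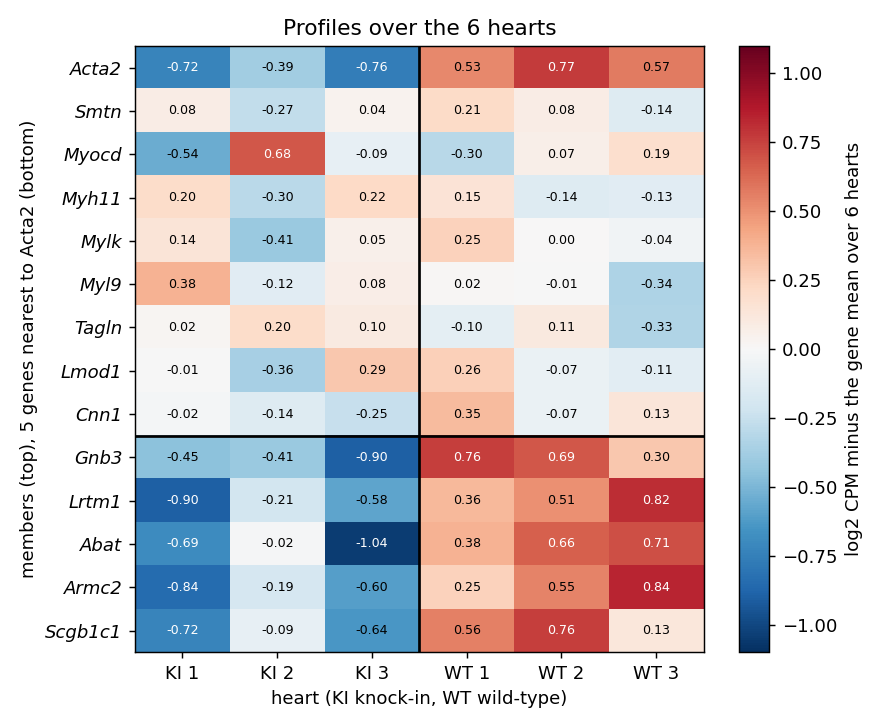
Centred log2 CPM, the value in each heart minus the gene's mean over 6 hearts, for the 9 tested contractile genes above the line and the 5 genes nearest in profile to Acta2 below it; columns are hearts, knock-in left and wild-type right. Acta2 runs from −0.76 to 0.77 and divides by genotype, whereas Myocd peaks at 0.68 in knock-in replicate 2.

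Of the 4 other actin genes tested, whose coding sequences are close relatives of Acta2, 0 passed edgeR's test (adjusted p from 0.741 to 0.979), and 0 had an unadjusted p under 0.05. Actc1, the main actin of the adult heart muscle cell, had a log2 fold change of 0.14 ± 0.11 (SE). Actb and Actg1, the actins of the cytoskeleton, had −0.07 ± 0.12 and 0.03 ± 0.12. Acta1, the skeletal actin that heart muscle also makes, spread widely, at 1223, 130 and 228 CPM in knock-in hearts, against 777, 639 and 399 CPM in wild-type hearts. Its log2 fold change of −0.20 ± 0.93 (SE) is smaller than its SE. Of the 31-base words of the longest Acta2 transcript, 1.5% also occur in other genes, chiefly the actin pseudogenes Gm6375 and Actg-ps1 and the gene Actg1. For Actb and Actg1 the share was 35.3% and 57.1%, so their counts are uncertain.

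On chromosome 19, 2 genes within 200 kb of Acta2 had enough counts to be tested, and neither passed. Fas, the death receptor gene, had 20.0, 13.4 and 18.2 CPM in knock-in hearts, against 14.0, 15.6 and 9.75 CPM in wild-type hearts (log2 fold change 0.39 ± 0.20 SE, edgeR adjusted p = 0.566). Stambpl1, a deubiquitinase gene, had 0.05 ± 0.25 (adjusted p = 0.979).

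The regulators of the smooth muscle programme were followed in a list of 19 genes, of which 18 were tested and 0 passed edgeR's test, with 1 at an unadjusted p under 0.05, as had 9.97% of all tested genes. Srf, which binds the CArG box, had 87.4, 70.4 and 76.7 CPM in knock-in hearts, against 84.2, 86.8 and 86.4 CPM in wild-type hearts. Its coactivators Mrtfa and Mrtfb, which shuttle to the nucleus when actin polymerises, had log2 fold changes of −0.18 ± 0.21 and 0.14 ± 0.13 (SE). The list's median was 0.03. Its smallest p belonged to Fhl2, a LIM-domain cofactor abundant in heart muscle, at 0.23 ± 0.10 (adjusted p = 0.459). The list's summed level, 2494 to 2503 CPM in knock-in and 2085 to 2367 CPM in wild-type hearts, is mostly Fhl2.

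Among 22 actin-bound and dense-body proteins 0 passed edgeR's test, with a median of 0.05 and 1 gene at an unadjusted p under 0.05. Their summed level did not overlap, at 16713 to 20050 CPM in knock-in and 13579 to 15629 CPM in wild-type hearts, and most of it was Tpm1. The gene under 0.05 was Tpm1, a tropomyosin that heart muscle makes in quantity, at 0.47 ± 0.11 (adjusted p = 0.146). Of 12 receptor and surface genes 0 passed, the median was 0.12, and 4 had an unadjusted p under 0.05. These 4 went in both directions. Adra1b, an alpha-1 adrenergic receptor, had 0.52 ± 0.14 (adjusted p = 0.227). Ptgir, the prostacyclin receptor, had −0.79 ± 0.27 (adjusted p = 0.336) and Adra1d, another alpha-1 adrenergic receptor, had −0.68 ± 0.26 (adjusted p = 0.407).

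The cells around smooth muscle were followed by their markers. Of 13 pericyte markers 0 passed (median 0.08, 0 at an unadjusted p under 0.05), and their summed level was 753 to 867 CPM in knock-in and 793 to 830 CPM in wild-type hearts. Higd1b had the smallest p among them (0.49 ± 0.27 SE, adjusted p = 0.615). Of 12 endothelial markers 0 passed (median 0.14, 0 at an unadjusted p under 0.05), with summed levels of 685 to 1082 CPM in knock-in and 742 to 1036 CPM in wild-type hearts. Of these 12, 9 had a positive and 3 a negative log2 fold change. Kdr, a receptor for vascular endothelial growth factor and 1 of the 3, had the smallest p among them (−0.38 ± 0.17 SE, adjusted p = 0.501).

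Acta2 also marks myofibroblasts, the activated matrix-forming cells of injured tissue. Of 14 tested myofibroblast and matrix genes 0 passed edgeR's test, the median was 0.24, and 4 had an unadjusted p under 0.05. Comp, a cartilage matrix protein, had 5.20, 2.63 and 6.40 CPM in knock-in hearts, against 2.04, 1.66 and 1.80 CPM in wild-type hearts (log2 fold change 1.37 ± 0.32 SE, adjusted p = 0.146). Of 14 fibroblast markers 0 passed edgeR's test, the median was −0.02, and 1 had an unadjusted p under 0.05. Scara5, a ferritin receptor of fibroblasts, had 9.36, 13.2 and 9.53 CPM in knock-in hearts, against 20.9, 16.6 and 21.7 CPM in wild-type hearts (−0.88 ± 0.17 SE, adjusted p = 0.0789). The summed level of the fibroblast markers was 1546 to 1982 CPM in knock-in and 1702 to 1753 CPM in wild-type hearts, and that of the myofibroblast genes was 186 to 355 CPM in knock-in and 213 to 250 CPM in wild-type hearts. Both sums overlapped. Of 14 genes for TGF-beta ligands, receptors and Smads, a pathway known to raise Acta2 in fibroblasts, 0 passed (median 0.06, 3 at an unadjusted p under 0.05). Ltbp1, which holds the latent ligand in the matrix, had 0.33 ± 0.11 (adjusted p = 0.315).

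The surface of the heart was followed by 8 epicardial and mesothelial markers. The summed level of these markers was 4.43 to 4.81 CPM in knock-in and 6.57 to 10.6 CPM in wild-type hearts, with no overlap, and most of it came from Wt1 and Aldh1a2. Its part in the Acta2 result was not tested. Of the 8, 2 were tested and 0 passed, with 1 at an unadjusted p under 0.05 and −0.57 as their median. They were Aldh1a2, a retinoic acid synthesising enzyme (log2 fold change −0.70 ± 0.24 SE, adjusted p = 0.334), and the epicardial factor Wt1 (−0.44 ± 0.24 SE). The CPM of Wt1 overlapped between the genotypes. That of Aldh1a2 did not, so 1 of the 2 did not overlap, against 16.1% of all tested genes. The other 6 did not pass the filter on low counts. Among them Lrrn4 was counted 0, 0 and 0 times in knock-in hearts, against 4, 0 and 4 times in wild-type hearts. Upk3b was counted 0, 0 and 1 times in knock-in hearts, against 20, 1 and 9 times in wild-type hearts. Msln was counted 2, 0 and 0 times in knock-in hearts, against 8, 3 and 4 times in wild-type hearts. Upk1b had 1, 0 and 0 counts against 6, 0 and 3, and Krt19 had 1, 0 and 0 against 7, 1 and 0. Krt8 was highest in knock-in replicate 1, with 4, 0 and 2 counts in knock-in hearts, against 3, 3 and 1 counts in wild-type hearts. Many of these counts lay at or under the floor of 3. Of 4 tested atrial markers 0 passed (median 0.47, 0 at an unadjusted p under 0.05), and the summed level of the atrial list, given above, overlapped. Dkk3 had the smallest p among them (0.92 ± 0.42 SE, adjusted p = 0.508). In the list of 11 cardiomyocyte markers 1 passed as higher, against 0.11% of all tested genes. This was Myl2, the ventricular regulatory light chain, at 15140, 15786 and 15257 CPM in knock-in hearts, against 10489, 11107 and 9945 CPM in wild-type hearts (log2 fold change 0.55 ± 0.09 SE, adjusted p = 0.0399). The median of the list was 0.08, and 3 had an unadjusted p under 0.05. Myl2 did not pass without knock-in replicate 1 (adjusted p = 0.0534), knock-in replicate 3 (0.209), wild-type replicate 1 (0.162), wild-type replicate 2 (0.130) or wild-type replicate 3 (0.0775), nor with library-size scaling (0.0578). The summed level of the cardiomyocyte list, given above, did not overlap between the genotypes, but Myl2 is part of that sum. Gene by gene, the CPM did not overlap for 2 of the 11, Myl2 among them, against 16.1% of all tested genes. The sum therefore does not describe the list as a whole. Its part in the Acta2 result was not tested.

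**Figure D5:**
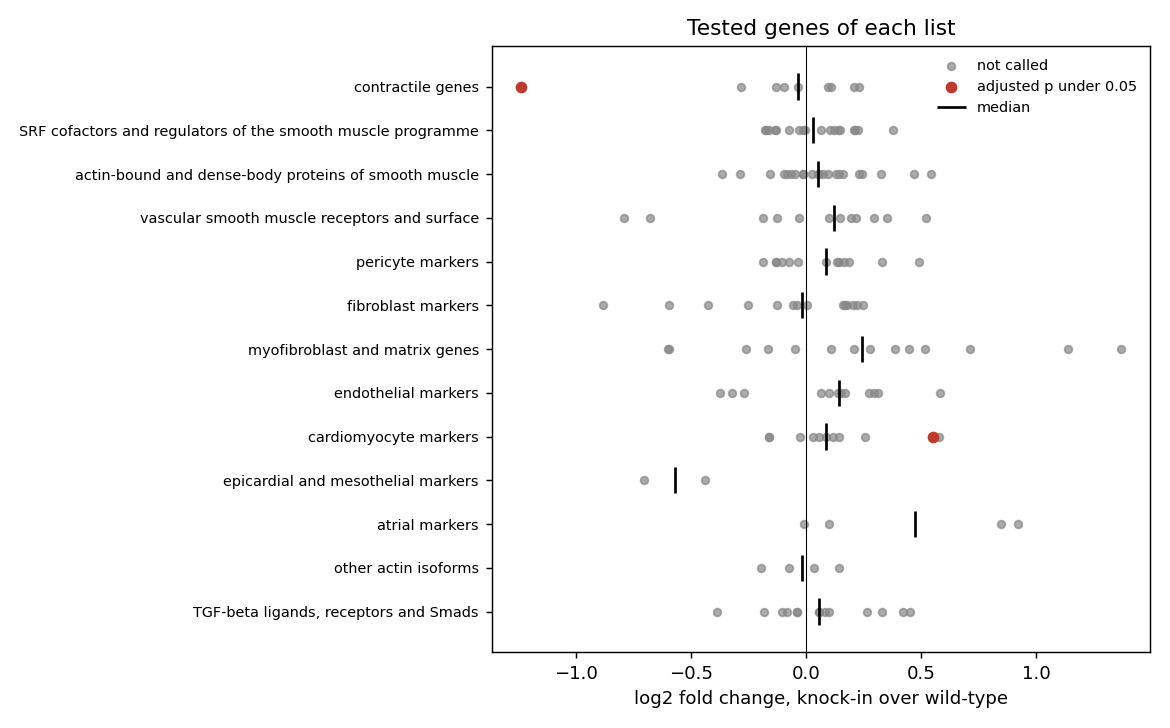
Log2 fold change, knock-in over wild-type, of each tested gene in the contractile set and in 12 other lists; each point is 1 gene, vertical marks are medians, and red points have an edgeR adjusted p under 0.05. Acta2 at −1.24 and Myl2 at 0.55 are the points called.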

How the data were processed

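Values are raw read counts per Ensembl gene, deposited by the authors in 1 table without normalization. GRCm38.p6, STAR, Subread 1.5.2 with featureCounts, and DESeq2 appear in the submitters' processing notes. The sources used here do not give the annotation release, strand setting or handling of multiply mapped reads. Names, exons and coordinates came from GENCODE M21 (GRCm38), which held 49056 of 49315 identifiers. Columns were matched by the sample descriptions. No label says that the samples of a genotype came from separate animals, so p-values measure the spread between these samples, which may be partly technical.

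edgeR 4.0.16 (R 4.3.3) was run on all 6 hearts: filterByExpr, TMM, robust glmQLFit and glmQLFTest on genotype, adjusted by Benjamini-Hochberg over 12777 genes. On simulated counts it called 74 of 100 genes given a log2 change of 1 in either direction and 97 of 100 given a change of 2. It also called 13 of 12577 unchanged genes. Counts were drawn independently around a common mean for each gene, so no simulated heart stood apart as hearts did in the data. The share called may therefore differ for these hearts. Smaller changes were not simulated. Each SE was taken as the size of the log2 fold change over the root of its F statistic. Log2 CPM used a prior count of 0.5. A floor of 3 counts equals 0.192 to 0.212 CPM and covers counting error only. DESeq2 1.42.0 and limma-voom (limma 3.58.1) were alternatives.

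The members, all lists and the tests were chosen with earlier results of these data known. Genes named are the members, the other actins, the called members or the member with the smallest p of each list, the 5 and 3 genes nearest in profile (predicted genes left out), and tested genes within 200 kb of Acta2. Txnip, Pcsk7, Srf, Mrtfa, Mrtfb, Wt1, Ptgir, Adra1d, Krt8, Lrrn4, Upk3b, Myl7 and Nppa were named after their values were seen. 1 list of genes is not reported here.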

Additional observations from a re-analysis of the deposited data

How the results depend on the processing

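Acta2 was the 1 member called in each of the 13 alternatives (DESeq2, limma-voom, scaling by RLE or by library size, genes unfiltered or kept at a mean of 1 CPM or more, each heart left out, and, chosen after seeing the data, wild-type replicate 3 and knock-in replicate 2 left out together). Its log2 fold change ran from −1.39 to −1.16 over them, with adjusted p from 3.02e-22 to 0.0420, and from −1.36 to −1.16 with 1 heart left out. The ratio of Acta2 to the median of the other members differed by −1.45 to −1.17 with 1 heart left out.

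Over all genes, 38 were called. There were 317 without a filter (144 higher, 173 lower), 131 with DESeq2 (58 and 73), 18 with limma-voom (7 and 11) and 392 without the 2 hearts. Leaving out 1 heart gave 5 (without wild-type replicate 2) to 174 (without knock-in replicate 2), 14 without wild-type replicate 1, 13 without wild-type replicate 3 and 6 without knock-in replicate 3 among them. The cause was not tested. The lists besides the members depended on the tool as well. DESeq2 called Scara5 (DESeq2 adjusted p = 0.0020), lower in knock-in hearts, and Comp (0.018) and Tpm1 (0.032), higher in knock-in hearts, which edgeR did not call. DESeq2 results for list genes not named above are not given here.

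Small fold changes turned sign. With 1 heart left out, Lmod1 ran from −0.21 to 0.12, Myocd from −0.29 to 0.36, Mylk from −0.23 to 0.029 and Smtn from −0.19 to 0.014. Without the 2 hearts Lmod1 was at 0.050 and Myocd at −0.19. No paired analysis was possible because hearts were numbered by accession within each genotype, with no shared label. Counts of 2 to 46 limit Cnn1, Lmod1 and Actg2.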
